A study of Mus musculus with 10 samples.

Results

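The transcripts of 47 genes of the cell cycle were followed in primary murine keratinocytes and in CD8+ T cells. These were 23 genes of DNA replication, 21 genes of mitosis and 3 inhibitors of cyclin-dependent kinases (CDKs), named by their known roles and found by their symbols. All 47 were present once in the deposited tables of 25814 genes. The 10 libraries of RNA fell into 5 groups of 2, and the replication and mitosis genes were analysed apart. Keratinocytes were cultured at a low concentration of calcium, either alone or together with activated CD8+ T cells, which were washed off before lysis. The study's methods describe all co-cultures as a mix of keratinocyte medium with the T-cell medium, which contains calcium. They name no such mix for keratinocytes cultured alone. The study's methods name tails of adult mice or newborn mice as sources of keratinocytes and do not say which were sequenced. The T cells were picked from spleens with magnetic beads against CD8 and activated for 1 d with Abs to CD3 and CD28. They were collected at that point (activated T cells), after another day in medium without keratinocytes, or after another day of co-culture with keratinocytes. The labels call this medium keratinocyte medium, whereas the study's methods describe a mix of it with the T-cell medium. The labels of co-cultured T cells and the study's results give 1 d for the co-culture, whereas the deposited design text gives 1 h. The labels of keratinocytes give no time. No mutant allele was named for any group. The labels number the libraries of keratinocytes and of activated T cells as replicates 1 and 2. Those of the other T-cell groups carry no number and are called libraries a and b. The design text speaks of parallel experiments but not of separate animals, so the p-values below measure the spread between these libraries only.

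Between 12864931 and 18019609 reads on exons were counted per library. The levels given below are RPKM values (reads scaled to exon length and to the mapped reads of the library), which the authors deposited, and 3 reads on 1 kb of exons came to 0.158 to 0.212 RPKM. The labelled cell types were checked by marker genes. Cd8a was at 110.0 to 334 RPKM in the T-cell libraries. Krt14 was at 7239.8 to 11836 RPKM in the keratinocyte libraries, although Krt15 did not exceed 1.08 RPKM there. Transcripts of T cells were found in all keratinocyte libraries. The summed level of 9 T-cell markers was 1441 to 2927 RPKM in the T-cell libraries, and 111 and 439 RPKM in keratinocytes cultured alone. In co-cultured keratinocytes it was 143 and 786 RPKM, although Cd8a did not exceed 1.16 RPKM in any keratinocyte library. Cd4, which CD8+ T cells should lack, exceeded Cd8a in every keratinocyte library. Its level was 11.4 and 43.5 RPKM without co-culture, and 15.0 and 84.5 RPKM with it. T-cell libraries held 16.8 to 102 RPKM of Cd4. Which cells these transcripts came from was not tested. Long transcripts were lower in the second library of each group. In genes with 6 kb or more of exons, its median log2 ratio to the first library lay between -0.77 and -0.37. In RNA of whole cultures, a lower level can come from fewer cells in the cycle or from less RNA in each of them, and these cannot be told apart here.

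Cells duplicate their DNA in S phase and divide it in mitosis, and different genes are switched on for these steps. Before S phase, the transcription factor E2F1 turns on the genes of the MCM helicase, of the DNA polymerases and of nucleotide synthesis, and cyclin E activates CDK2. Later, cyclin B with CDK1, the Aurora and Polo kinases and the anaphase promoting complex (APC/C) drive entry into and exit from mitosis, and inhibitors such as p21, encoded by Cdkn1a, hold CDKs in check. Naive T cells rest outside the cycle until their receptor is engaged, whereas basal keratinocytes in a medium low in calcium keep dividing.

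The replication genes were most abundant in activated T cells and the mitosis genes were not. The median level of the 23 replication genes was 56.1 and 37.0 RPKM in activated T cells. It was 25.2 to 32.1 RPKM after another day in medium, 22.0 to 29.5 RPKM in co-cultured T cells and 6.39 to 13.2 RPKM in the 4 keratinocyte libraries. Every T-cell library thus lay above every keratinocyte library. The median of the 21 mitosis genes was 17.5 and 6.03 RPKM in activated T cells, 14.7 to 27.1 RPKM in T cells in medium and 9.38 to 27.5 RPKM in co-cultured T cells. In keratinocytes it was 9.12 to 20.6 RPKM, which overlaps with each T-cell group. The median of the mitosis genes divided by that of the replication genes was 1.79 to 1.83 in keratinocytes alone and 0.996 to 1.56 in co-cultured keratinocytes. It was 0.163 to 0.311 in activated T cells, 0.582 to 0.844 in T cells in medium and 0.426 to 0.932 in co-cultured T cells. The 2 activated libraries lay below the 8 others in this ratio.

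**Figure D1:**
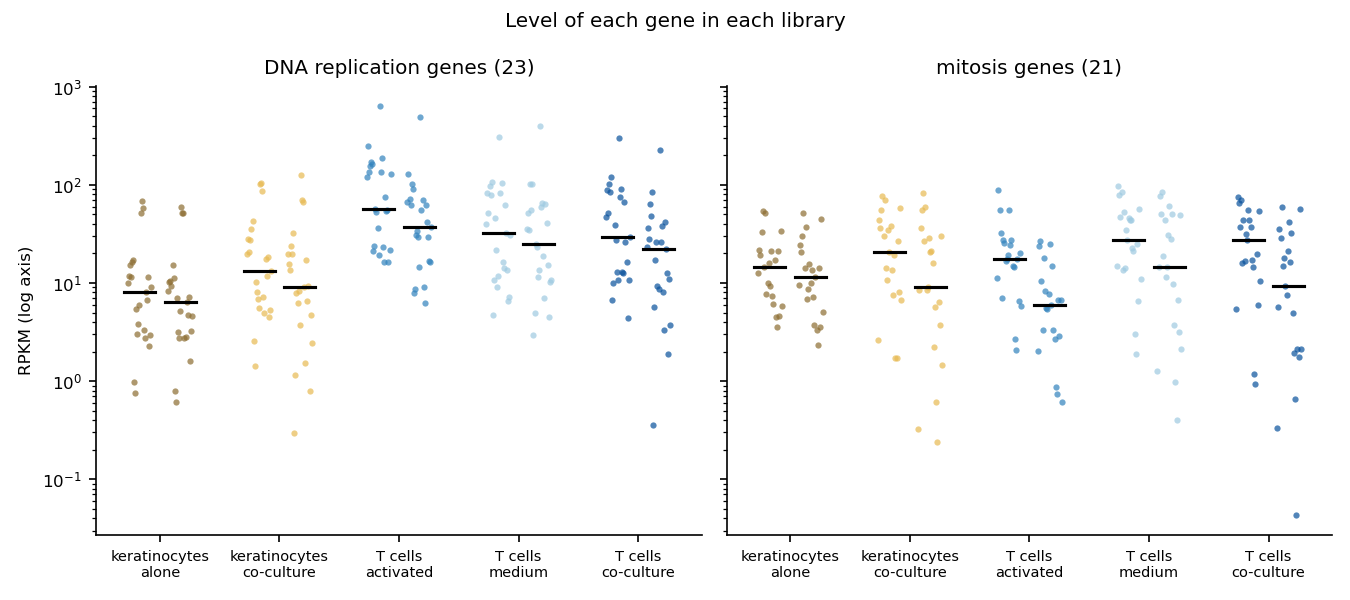
RPKM (log axis) of each of the 23 replication genes (left) and 21 mitosis genes (right) in the 10 libraries, 2 per group, with replicate 1 or library a on the left of each pair. Points are genes and black lines medians; the replication medians of the T cells, 22.0 to 56.1 RPKM, lie above those of the keratinocytes, 6.39 to 13.2 RPKM, while the mitosis medians of both cell types overlap.

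Activated T cells were first compared with keratinocytes alone. Cell type, medium and activation differ together here, so that their parts cannot be told apart. The exon reads were tested with the quasi-likelihood method of edgeR, with adjustment of p-values over all genes tested (Benjamini-Hochberg). A gene was called at an adjusted p under 0.05, and each log2 fold change is given with its standard error. Of the 23 replication genes, 21 were higher in activated T cells and none was lower, beside 15.3% higher and 25.6% lower among all 12666 genes tested. The median log2 fold change was 3.02, beside -0.07 over all genes. Without any one of the 4 libraries, 19 to 22 replication genes were called. All 47 genes passed the filter on low counts in this and in each later comparison. The 21 mitosis genes behaved otherwise. Of these, 2 were higher and 1 was lower, with a median log2 fold change of -0.31.

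The 7 MCM proteins, which form or assist the helicase that unwinds DNA at the fork, were all higher in activated T cells, with log2 fold changes from 2.91 to 4.02. Mcm3 stood at 11.7 and 10.2 RPKM in keratinocytes cultured alone, 28 and 15.6 in co-cultured keratinocytes, 249 and 128 in activated T cells, 83.4 and 51.2 in T cells kept in medium and 88.5 and 36.2 in co-cultured T cells. Its T-cell libraries were all above its keratinocyte libraries (log2 fold change 4.02 ± 0.46, adjusted p = 0.00172). Mcm10, which binds the helicase and the polymerase α, was at 0.989 and 0.794 RPKM in keratinocytes cultured alone, 2.59 and 0.294 in co-cultured keratinocytes, 21.2 and 7.83 in activated T cells, 4.73 and 2.98 in T cells kept in medium and 6.67 and 0.357 in co-cultured T cells, with the lower value in the second library of each group. Library b of the co-cultured T cells lay below both libraries of keratinocytes alone, while activated T cells lay above them (log2 fold change 3.94 ± 0.57, adjusted p = 0.00395). Mcm2, Mcm4, Mcm5, Mcm6 and Mcm7, all subunits of the helicase ring, ranged from 61.8 to 172 RPKM in activated T cells and from 8.29 to 17.1 RPKM in keratinocytes alone, with no overlap.

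Cdc6 and Cdt1 load the helicase onto origins. Cdc6 had the largest log2 fold change among the 47 genes in this comparison. It was at 0.755 and 0.608 RPKM in keratinocytes cultured alone, 1.43 and 1.16 in co-cultured keratinocytes, 24.1 and 8.58 in activated T cells, 10.8 and 4.92 in T cells kept in medium and 9.90 and 5.63 in co-cultured T cells, so that all 6 T-cell libraries exceeded all 4 keratinocyte libraries (log2 fold change 4.49 ± 0.60, adjusted p = 0.00296). Cdt1 was at 56.1 and 30.7 RPKM in activated T cells and at 5.49 and 7.11 RPKM in keratinocytes alone (log2 fold change 2.70 ± 0.43, adjusted p = 0.00524). CDC45 and the GINS proteins join the helicase when it starts. Cdc45 was at 53 and 33.8 against 3.04 and 3.18 RPKM (log2 fold change 3.72 ± 0.39, adjusted p = 0.00134) and Gins1 at 36.7 and 29.3 against 3.78 and 2.76 RPKM (log2 fold change 3.26 ± 0.41, adjusted p = 0.00248). Gins2 differed less, with 19.4 and 14.6 against 5.96 and 5.16 RPKM (log2 fold change 1.53 ± 0.33, adjusted p = 0.0149), and missed the threshold without either keratinocyte library. Of its reads and those of Cdt1, Ccne2 and Pcna, only 20.5, 21.7, 32.2 and 43.6% were counted as unique by the authors, so that their levels may hold reads of other genes. These 4 genes were also higher in activated T cells by unique reads alone.

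Pcna, the clamp that holds polymerases on DNA, had the highest RPKM of the replication genes in each T-cell library, although part of its reads were not unique. It was at 52.2 and 60 RPKM in keratinocytes cultured alone, 102 and 126 in co-cultured keratinocytes, 629.9 and 489 in activated T cells, 309 and 395 in T cells kept in medium and 300.3 and 227 in co-cultured T cells, and the groups of both cell types did not overlap (log2 fold change 3.23 ± 0.37, adjusted p = 0.00175). Rfc4, a subunit of the loader of this clamp, was at 54.6 and 42.1 against 6.78 and 4.67 RPKM (log2 fold change 3.0 ± 0.38, adjusted p = 0.00243). Prim1, the primase that starts new strands, was at 74.5 and 62.4 against 8.02 and 6.39 RPKM (log2 fold change 3.17 ± 0.34, adjusted p = 0.00138). Pola1, the polymerase α that extends these primers, was at 16.2 and 6.29 against 2.73 and 2.83 RPKM (log2 fold change 1.92 ± 0.50, adjusted p = 0.0265), a call that was lost without replicate 1 of the activated T cells, without that of the keratinocytes and in one fit of all 10 libraries.

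The 2 replication genes that were not called were both subunits of ribonucleotide reductase, the enzyme that makes deoxynucleotides. Rrm1 was at 68.9 and 52 RPKM in keratinocytes cultured alone and at 136 and 55.9 RPKM in activated T cells, so that the groups overlapped (log2 fold change 0.58 ± 0.48, adjusted p = 0.363). Rrm2 lay at 58.0 and 52.2 RPKM in keratinocytes and 186 and 70.7 RPKM in activated T cells (log2 fold change 1.13 ± 0.49, adjusted p = 0.113). Together with Pcna these were the most abundant replication genes of keratinocytes. Tyms, which makes thymidylate, was called and was at 23.5 and 9.01 RPKM in activated T cells against 3.29 and 2.77 RPKM in keratinocytes (log2 fold change 2.34 ± 0.52, adjusted p = 0.0159).

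The regulators of entry into S phase were also higher in activated T cells. Ccne1 and Ccne2 encode cyclin E1 and E2, which activate CDK2. Ccne1 was at 55.5 and 29.2 against 11.6 and 7.27 RPKM (log2 fold change 2.09 ± 0.44, adjusted p = 0.0138), and Ccne2 at 16.4 and 16.6 against 2.27 and 1.60 RPKM (log2 fold change 3.02 ± 0.38, adjusted p = 0.00237). E2f1 was at 21.7 and 16.5 against 2.96 and 3.24 RPKM (log2 fold change 2.54 ± 0.36, adjusted p = 0.0035). Uhrf1, which guides DNA methylation to new strands, was at 128 and 37.0 against 9.20 and 4.58 RPKM (log2 fold change 3.50 ± 0.69, adjusted p = 0.011), with the widest ratio between the activated replicates among the replication genes. A further 40 replication genes gave 32 higher and 0 lower, beside 15.3% and 25.6% of all genes, with a median log2 fold change of 2.45. The largest differences among them were those of Exo1, an exonuclease (log2 fold change 4.43 ± 0.54, adjusted p = 0.00211), Dut, which removes dUTP (log2 fold change 4.12 ± 0.36, adjusted p = 0.000779), and Hells, a chromatin remodeler (log2 fold change 3.86 ± 0.35, adjusted p = 0.000868).

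**Figure D2:**
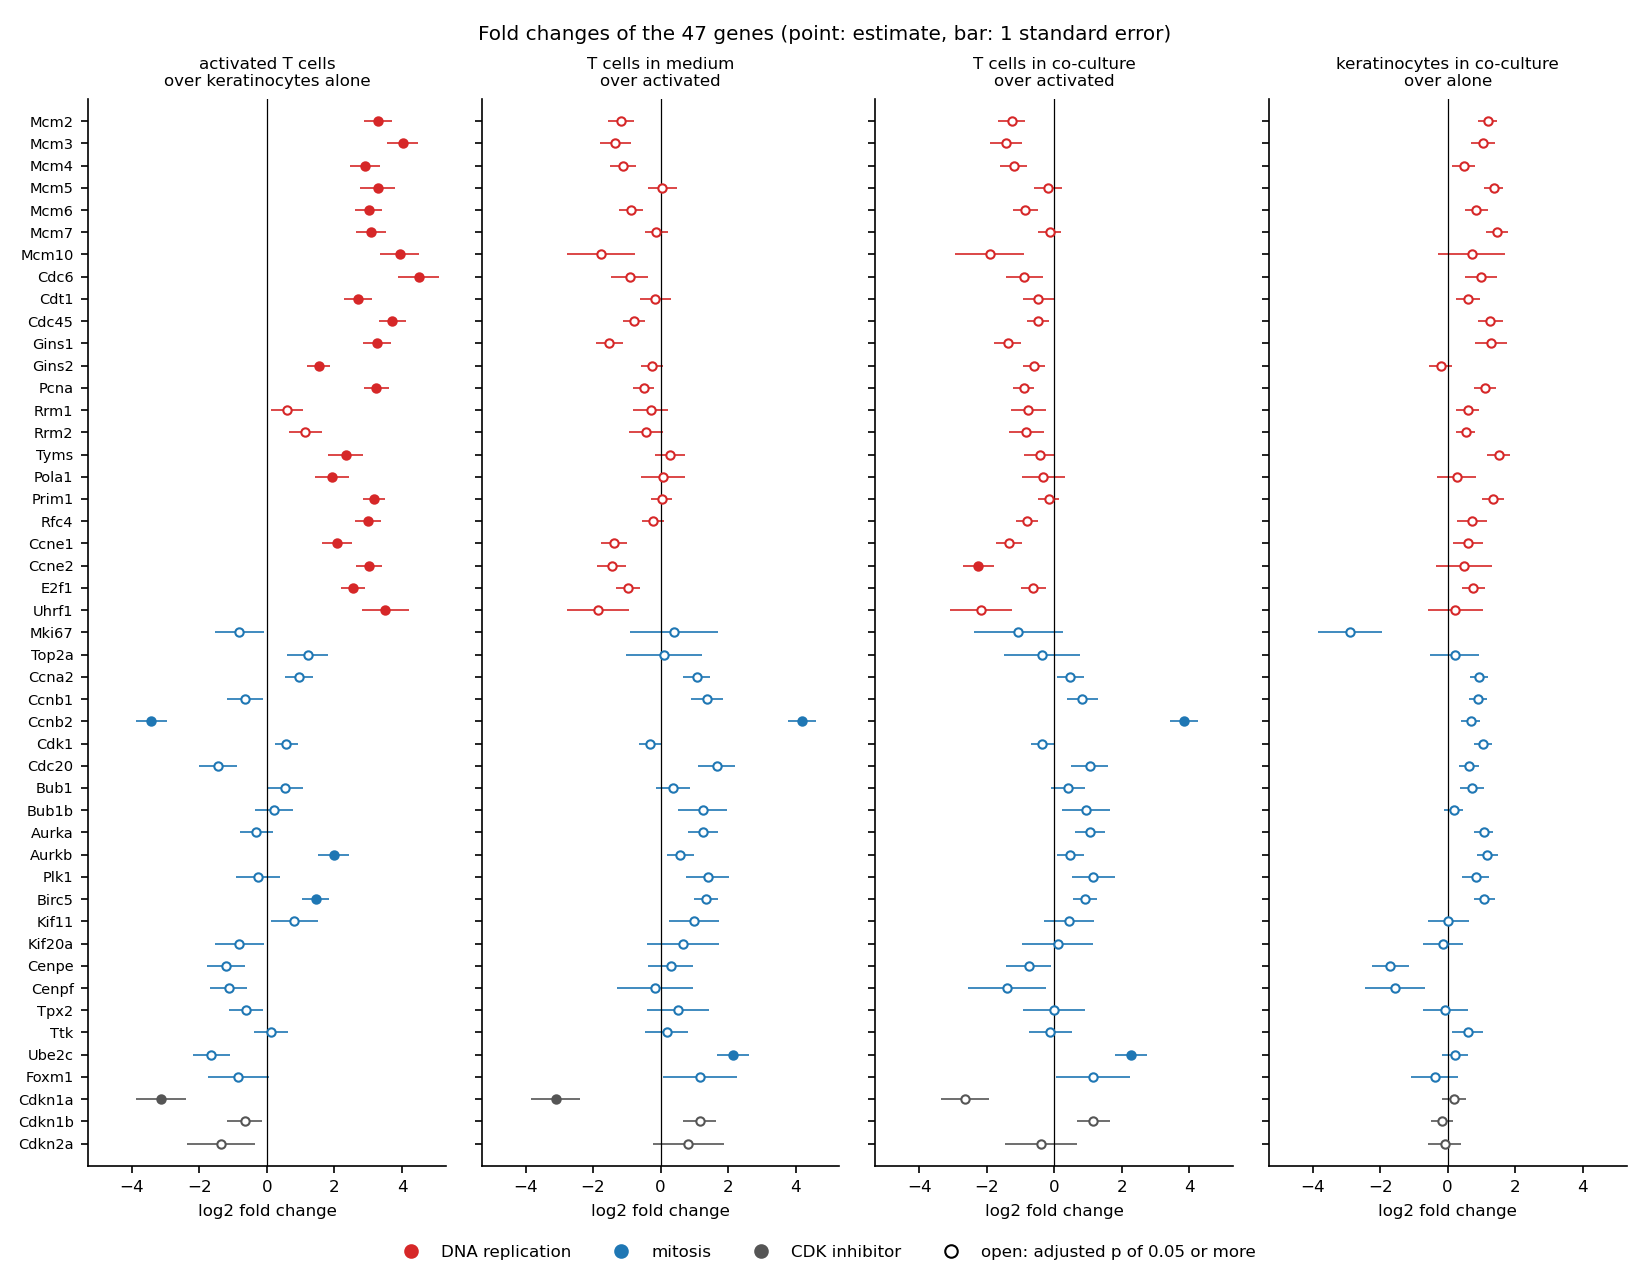
Log2 fold changes (point) with 1 standard error (bar) of the 47 genes in 4 comparisons, 2 libraries per group. Filled points have an adjusted p under 0.05; the replication genes (red) lie between 0.58 and 4.49 in activated T cells over keratinocytes, and Ccnb2 lies at -3.43 there but at 4.19 and 3.86 in T cells after another day in medium or in co-culture.

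Among the mitosis genes, Ccnb2 went against the replication genes. It encodes cyclin B2, a partner of CDK1 (GRCm38 chr9:70407692-70421547, 9 annotated exons). Ccnb2 was at 53.7 and 51.9 RPKM in keratinocytes cultured alone, 77.4 and 83.2 in co-cultured keratinocytes, 7.07 and 3.31 in activated T cells, 84.6 and 84.4 in T cells kept in medium and 70.8 and 60.1 in co-cultured T cells. Both activated libraries thus lay far below the 8 others (log2 fold change -3.43 ± 0.46, adjusted p = 0.00306). Ube2c and Cdc20, which work with the APC/C, were also low in activated T cells, Ube2c at 20.0 and 6.73 against 33.7 and 44.7 RPKM in keratinocytes and Cdc20 at 25.8 and 8.25 against 51.2 and 37.3 RPKM. Their groups did not overlap, but neither passed the test (Ube2c log2 fold change -1.64 ± 0.55, adjusted p = 0.0548, Cdc20 log2 fold change -1.46 ± 0.56, adjusted p = 0.0814).

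Aurkb and Birc5 were the 2 mitosis genes with a higher level in activated T cells. They encode the Aurora B kinase and survivin, which act together on chromosomes. Aurkb was at 55.3 and 25.1 against 9.27 and 9.94 RPKM (log2 fold change 1.98 ± 0.45, adjusted p = 0.0175) and Birc5 at 27.3 and 14.7 against 7.39 and 7.16 RPKM (log2 fold change 1.45 ± 0.40, adjusted p = 0.0299). The call of Birc5 was lost without replicate 1 of the activated T cells and without either keratinocyte library. The other 18 mitosis genes had log2 fold changes between -1.64 and 1.20. Ccna2 (cyclin A2), Cdk1 and Top2a (topoisomerase II α) had positive values, and Mki67, Cenpe and Cenpf, which encode Ki-67 and proteins of the centromere, negative ones. The kinases of the spindle checkpoint stood near 0, with 0.54 ± 0.54 for Bub1, 0.21 ± 0.56 for Bub1b and 0.12 ± 0.51 for Ttk. Of the proteins that build the spindle and split the cell, Kif11 had 0.81 ± 0.69, Tpx2 -0.63 ± 0.50 and Kif20a -0.82 ± 0.73. Foxm1, the factor that switches on many mitosis genes, was at 5.79 and 0.611 RPKM in activated T cells and 5.78 and 5.08 RPKM in keratinocytes (log2 fold change -0.85 ± 0.90, adjusted p = 0.479), so that its activated replicates lay on either side of the keratinocyte libraries. Part of the reads of Kif20a and Ccna2 were not unique (72.5 and 80.2% were), and all other mitosis genes had 90% or more unique reads. These counts depended on the library. All 21 mitosis genes were lower in replicate 2 than in replicate 1 of the activated T cells, with a median log2 ratio of -1.56, and 22 of the 23 replication genes were, with a median of -0.87. Without replicate 1 of the activated T cells, 1 mitosis gene was higher and 11 were lower than in keratinocytes, and without replicate 2, 5 were higher and 1 was lower. Over all genes, these fits gave 1775 higher and 3372 lower, and 1859 higher and 2987 lower. Cd4, which a CD8+ T cell should lack, was at 16.8 and 102 RPKM in these replicates, and the summed myeloid markers were at 11.1 and 62.7 RPKM. The part of such cells in the difference was not tested. Beside 15.3% higher and 25.6% lower of all genes, 13 of 54 other mitosis genes measured were higher and 5 lower. Among these were Trip13, a checkpoint ATPase (log2 fold change 3.56 ± 0.37, adjusted p = 0.00133), Cdca5, which protects cohesin (log2 fold change 3.92 ± 0.42, adjusted p = 0.00145), and Anln, a protein of the cleavage furrow (log2 fold change -4.48 ± 0.43, adjusted p = 0.00104).

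Of the CDK inhibitors, Cdkn1a was lower in activated T cells than in keratinocytes, unlike the replication genes. It was at 329 and 249 RPKM in keratinocytes cultured alone, 378 and 251 in co-cultured keratinocytes, 12.4 and 56.0 in activated T cells, 2.68 and 4.56 in T cells kept in medium and 4.70 and 5.05 in co-cultured T cells. The call held under all 16 alternatives (log2 fold change -3.14 ± 0.74, adjusted p = 0.0193), and all 6 T-cell libraries lay below all 4 keratinocyte libraries. Cdkn1b, which encodes p27, was at 14.8 and 16.1 RPKM in keratinocytes cultured alone and at 5.40 and 15.1 RPKM in activated T cells, and one activated library lay between both keratinocyte libraries (log2 fold change -0.66 ± 0.52, adjusted p = 0.345). Cdkn2a was at 6.38 and 4.91 RPKM in keratinocytes and 0.457 and 4.15 RPKM in activated T cells (log2 fold change -1.36 ± 1.00, adjusted p = 0.315). Its reads cannot separate the transcripts of p16 and p19, which share exons. Beside 25.6% of all genes, 2 of 4 other CDK inhibitors were lower. These were Cdkn1c, which encodes p57 (log2 fold change -4.80 ± 1.28, adjusted p = 0.0282), and Cdkn2b, which encodes p15 (log2 fold change -4.68 ± 0.69, adjusted p = 0.00408). Of 10 cyclins, CDKs and pocket proteins of G1, 4 were higher and 2 lower, beside 15.3% higher and 25.6% lower of all genes. Ccnd1, which encodes cyclin D1, was at 101 and 44.8 RPKM in keratinocytes cultured alone and at 0.0318 and 0.483 RPKM in activated T cells (log2 fold change -8.23 ± 1.15, adjusted p = 0.00335), whereas Ccnd3, for cyclin D3, and the phosphatase gene Cdc25a were higher in activated T cells (Ccnd3 log2 fold change 2.29 ± 0.34, adjusted p = 0.00426, Cdc25a log2 fold change 2.97 ± 0.53, adjusted p = 0.00765).

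Since the replication genes stood apart from the mitosis genes, their promoters were searched for letters that the literature of the cell cycle ties to either phase. RefSeq promoter windows (GRCm38.p6, 250 bases before to 50 bases after the start of a gene) were given for 38 of the 47 genes, some with 2 windows. The letters searched were those of E2F sites (TTCGCGC, alternatively TTGGCGC, alternatively TTCCCGC), of the cell cycle homology region or CHR (TTTGAA), and CCAAT, each on both strands. E2F letters were in 13 of 21 windows of replication genes (61.9%) and in 3 of 16 windows of mitosis genes (18.8%), beside 8.07% of all 32851 windows. CHR letters were in 2 of 21 windows of replication genes (9.52%) and in 12 of 16 windows of mitosis genes (75.0%), beside 17.9% of all windows. CCAAT was in 15 of 21 and in 15 of 16 windows, beside 37.4%. A match describes the letters only and shows neither binding nor a cause. The stretches below, all before the start of the gene, show how the letters lie in replication genes that were higher in activated T cells. They read from 5′ to 3′ on the strand of the gene, capitals mark the letters searched, and neighbouring E2F letters overlap each other in Mcm5 and Mcm6 and overlap CCAAT in Prim1.
Mcm5, chr8:75109339-75109508, plus strand: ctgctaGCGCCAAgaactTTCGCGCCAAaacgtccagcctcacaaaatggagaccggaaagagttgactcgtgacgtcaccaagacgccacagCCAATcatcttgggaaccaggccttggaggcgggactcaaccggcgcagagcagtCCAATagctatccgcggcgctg
Mcm6, chr1:128359706-128359825, minus strand: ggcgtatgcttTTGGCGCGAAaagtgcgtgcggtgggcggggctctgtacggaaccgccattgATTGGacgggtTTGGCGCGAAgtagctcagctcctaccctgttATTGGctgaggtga
Pola1, chrX:93632156-93632335, minus strand: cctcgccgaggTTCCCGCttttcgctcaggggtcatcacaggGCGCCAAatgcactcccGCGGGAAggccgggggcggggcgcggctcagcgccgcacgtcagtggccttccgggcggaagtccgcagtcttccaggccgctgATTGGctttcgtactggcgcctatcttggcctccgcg
Uhrf1, chr17:56303277-56303336, plus strand: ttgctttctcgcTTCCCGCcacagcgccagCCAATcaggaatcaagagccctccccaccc
Prim1, chr10:128015155-128015214, plus strand: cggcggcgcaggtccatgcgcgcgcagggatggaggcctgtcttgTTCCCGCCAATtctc

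The same letters lie differently before mitosis genes. Shown are Ccnb2 and Ube2c, which rose in T cells after the first day, and Cdc20, Cdk1 and Mki67. The windows of Mki67 and Cdk1 hold CHR letters at more than 1 place and E2F letters, in Cdk1 farther from the start than the CHR letters and outside the stretch. The stretch of Ccnb2 holds CCAAT in 3 places, while its CHR letters lie outside the stretch.
Ccnb2, chr9:70421555-70421654, minus strand: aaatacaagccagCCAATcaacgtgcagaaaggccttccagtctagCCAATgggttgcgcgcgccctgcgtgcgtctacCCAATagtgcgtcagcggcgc
Ube2c, chr2:164769829-164769928, plus strand: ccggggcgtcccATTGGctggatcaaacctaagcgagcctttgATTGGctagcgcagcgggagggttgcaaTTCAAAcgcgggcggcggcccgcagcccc
Cdc20, chr4:118437344-118437403, minus strand: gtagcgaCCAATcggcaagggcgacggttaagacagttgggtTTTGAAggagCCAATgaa
Cdk1, chr10:69352913-69353002, minus strand: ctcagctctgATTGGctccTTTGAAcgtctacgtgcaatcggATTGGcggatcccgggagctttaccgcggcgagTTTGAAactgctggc
Mki67, chr7:135716439-135716574, minus strand: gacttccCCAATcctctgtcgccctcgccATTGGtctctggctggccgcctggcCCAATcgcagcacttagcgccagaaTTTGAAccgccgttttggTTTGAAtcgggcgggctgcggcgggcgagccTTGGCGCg

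The next question was how these genes changed in T cells after the first day. T cells in medium and co-cultured T cells were each compared with activated T cells in one fit of the 6 T-cell libraries. Both comparisons share the activated libraries, so that they are not independent of each other. In both, time, medium and stage of activation changed together, and their parts cannot be told apart. In medium, 2 mitosis genes rose and none fell, beside 2.32% higher and 4.22% lower of 11863 genes tested, and none of the 23 replication genes was called by edgeR. At an unadjusted p under 0.05, 9 replication genes were lower, beside 14% of all genes (1662). DESeq2 called 5 of the 23 lower, beside 1086 of all genes, and limma 1, beside 818 with a pseudocount of 1. In co-culture, the same 2 mitosis genes rose and 1 replication gene fell, beside 4.59% higher and 5.72% lower (544 and 678 genes, or 396 and 762 with library size in place of TMM scaling). The median log2 fold change of the mitosis genes was 0.99 in medium and 0.48 in co-culture, that of the replication genes -0.79 and -0.82, and that of all genes -0.01 and -0.01.

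Ccnb2 rose most. From 7.07 and 3.31 RPKM in activated T cells it went to 84.6 and 84.4 RPKM in medium (log2 fold change 4.19 ± 0.42, adjusted p = 0.00991) and 70.8 and 60.1 RPKM in co-culture (log2 fold change 3.86 ± 0.41, adjusted p = 0.00525). It passed the threshold under all 16 alternatives tried in either comparison. Ube2c, the ubiquitin-conjugating enzyme of the APC/C (GRCm38 chr2:164769898-164778822), went from 20.0 and 6.73 to 56.4 and 49.0 RPKM in medium (log2 fold change 2.14 ± 0.47, adjusted p = 0.0386) and to 53.8 and 56.7 RPKM in co-culture (log2 fold change 2.27 ± 0.48, adjusted p = 0.0247). Both genes were above the activated libraries in all 4 later libraries. The call of Ube2c in medium was lost without replicate 2 of the activated T cells (adjusted p = 0.0671, edgeR), without library a of the medium (0.111) or without its library b (0.126). It was also lost with library size in place of TMM (0.0569). In co-culture the call was lost without library b of the co-culture (0.0557).

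With Ccnb2 and Ube2c, 8 of the 21 mitosis genes lay above both activated libraries in both medium libraries, beside 22.1% of all genes, and 4 did in co-culture, beside 23.6%. The others did not pass the test. Birc5 was at 27.3 and 14.7 RPKM in activated T cells and at 44.3 and 50.6 RPKM in medium (log2 fold change 1.34 ± 0.35, adjusted p = 0.062), Cdc20 at 25.8 and 8.25 RPKM before and 52.4 and 43.7 RPKM in medium (log2 fold change 1.66 ± 0.56, adjusted p = 0.115), and Ccnb1, which encodes cyclin B1, at 32.0 and 10.5 RPKM before and 46.9 and 49.9 RPKM in medium (log2 fold change 1.36 ± 0.47, adjusted p = 0.123). Plk1 and Aurka, the Polo and Aurora A kinases, had log2 fold changes of 1.40 ± 0.65 and 1.27 ± 0.44. Cdk1 itself did not share these values, with 27.4 and 17.9 RPKM in activated T cells and 13.7 and 18.9 RPKM in medium (log2 fold change -0.31 ± 0.34, adjusted p = 0.642). Of the 54 other mitosis genes measured, 3 rose in medium, beside 2.32% of all genes. In co-culture 5 rose and 1 fell, beside 4.59% higher and 5.72% lower of all genes. Cenpa, the histone of centromeres, went from 11.4 and 9.70 RPKM to 80.1 and 103 RPKM in medium (log2 fold change 3.27 ± 0.39, adjusted p = 0.0115) and to 79.0 and 114 RPKM in co-culture (log2 fold change 3.40 ± 0.39, adjusted p = 0.00525). Nusap1, a protein of the spindle, rose in medium (log2 fold change 2.44 ± 0.52, adjusted p = 0.0348) and in co-culture (log2 fold change 2.20 ± 0.51, adjusted p = 0.0345). Cdca3 rose in medium (log2 fold change 2.11 ± 0.47, adjusted p = 0.0389), and Cdc25c, a phosphatase that activates CDK1, in co-culture (log2 fold change 2.85 ± 0.70, adjusted p = 0.0406).

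**Figure D3:**
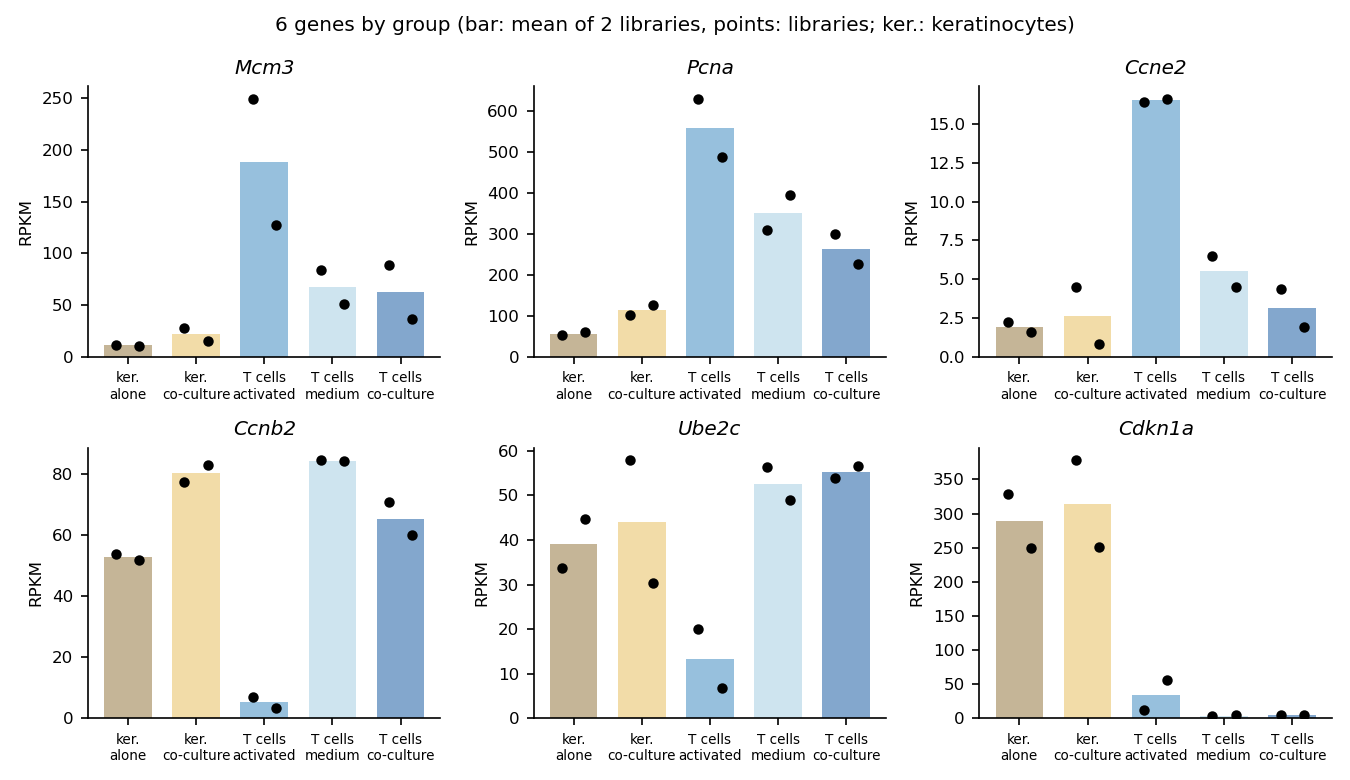
RPKM of 6 genes in the 5 groups, with the mean of 2 libraries as bars and each library as a point (ker., keratinocytes). Mcm3, Pcna and Ccne2 are highest in activated T cells, Ccnb2 is lowest there at 7.07 and 3.31 RPKM, and Cdkn1a is highest in keratinocytes, at 329 and 249 RPKM alone.

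The log2 fold changes of the replication genes were mostly negative. Of the 23, 14 lay below both activated libraries in both medium libraries, beside 32.5% of all genes, and none lay above. In co-culture 14 lay below, beside 33.9%, and all 23 log2 fold changes were negative. Ccne2 was the gene that fell (GRCm38 chr4:11191351-11204779). It was at 16.4 and 16.6 RPKM in activated T cells, 6.49 and 4.51 RPKM in medium (log2 fold change -1.45 ± 0.44, adjusted p = 0.0867) and 4.35 and 1.90 RPKM in co-culture (log2 fold change -2.24 ± 0.45, adjusted p = 0.0209). The call was lost with unique reads (adjusted p = 0.137, edgeR), without replicate 1 (0.0787) or replicate 2 (0.0505) of the activated T cells and without library b of the co-culture (0.0954). Without library a of the co-culture, 4 replication genes were called in place of 1, and without library b or without replicate 1 of the activated T cells, none was.

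Gins1 went from 36.7 and 29.3 RPKM to 9.05 and 11.5 RPKM in medium (log2 fold change -1.52 ± 0.39, adjusted p = 0.0587) and 13 and 9.30 RPKM in co-culture (log2 fold change -1.38 ± 0.39, adjusted p = 0.0616). Ccne1 went from 55.5 and 29.2 to 13.7 and 15.4 (log2 fold change -1.37 ± 0.38, adjusted p = 0.069) and 16.5 and 12.8 RPKM (log2 fold change -1.33 ± 0.38, adjusted p = 0.0604). Neither passed the test, although the groups of both did not overlap. Mcm3, Mcm2 and Mcm4 had log2 fold changes from -1.34 to -1.11 in medium and from -1.42 to -1.20 in co-culture. Uhrf1 had larger ones with larger errors (-1.85 ± 0.91 in medium and -2.17 ± 0.92 in co-culture), and was at 30.8 and 10.7 RPKM in medium and at 29.5 and 3.70 RPKM in co-culture. The same held for Mcm10 (-1.76 ± 1.01 and -1.91 ± 1.02). Mcm5, Mcm7 and Prim1 stood near 0, with log2 fold changes between -0.19 and 0.05 in both comparisons. Of the 40 further replication genes, 2 were called lower in medium, beside 4.22% of all genes. In co-culture 4 of the 40 were called lower, beside 5.72% of all genes, and none was called higher in either comparison. Orc1, the largest subunit of the origin recognition complex, went from 18.3 and 13.5 RPKM to 3.8 and 1.98 (log2 fold change -2.33 ± 0.48, adjusted p = 0.0329) and 2.85 and 1.38 RPKM (log2 fold change -2.73 ± 0.49, adjusted p = 0.0153). Tipin, a protein that stabilizes forks, fell in medium (log2 fold change -1.72 ± 0.33, adjusted p = 0.0266) and in co-culture (log2 fold change -2.02 ± 0.33, adjusted p = 0.0123).

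Of the CDK inhibitors, Cdkn1a fell in medium. It was at 12.4 and 56.0 RPKM in activated T cells, at 2.68 and 4.56 RPKM in medium (log2 fold change -3.11 ± 0.73, adjusted p = 0.0468) and at 4.70 and 5.05 RPKM in co-culture (log2 fold change -2.64 ± 0.72, adjusted p = 0.0547). The activated replicates lay farther apart from each other than the later libraries did. Without replicate 2, the log2 fold change in medium was -1.55 (adjusted p = 0.142, edgeR). Without library a or b of the medium it was -2.68 (0.171) and -3.63 (0.128). The call was also lost with limma and a pseudocount of 1. Cdkn1b lay above both activated libraries in all later libraries, with 5.40 and 15.1 RPKM before, 19.2 and 22.6 RPKM in medium (log2 fold change 1.16 ± 0.50, adjusted p = 0.193) and 23.3 and 17.9 RPKM in co-culture (log2 fold change 1.17 ± 0.50, adjusted p = 0.166). Cdkn2a had errors larger than its log2 fold changes (0.83 ± 1.05 in medium and -0.39 ± 1.06 in co-culture). Of 4 other inhibitors, 3 were tested and 1 was called higher in each comparison. These were Cdkn2c in medium (log2 fold change 1.78 ± 0.40, adjusted p = 0.0392) and Cdkn2d in co-culture (log2 fold change 1.86 ± 0.45, adjusted p = 0.0371), both inhibitors of CDK4 and CDK6. In either comparison 2 of the 3 lay above both activated libraries, beside 22.1% of all genes in medium and 23.6% in co-culture. None of the 3 was called between co-culture and medium. Cdk6 and Ccnd2, which promote entry into the cycle, fell in both. For Cdk6 this was -2.12 ± 0.34 in medium (adjusted p = 0.0184, edgeR) and -1.90 ± 0.34 in co-culture (0.0149), and for Ccnd2 -1.31 ± 0.31 (0.0467) and -1.32 ± 0.31 (0.0345).

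Whether keratinocytes altered these genes in T cells was asked by comparing co-cultured T cells with T cells in medium. None of the 47 genes was called by edgeR, beside 0.261% higher and 0% lower of 11863 genes. None of the 47 reached an unadjusted p under 0.05 either, beside only 409 of all 11863 genes, and DESeq2 and limma called none. The log2 fold changes ran from -0.79 to 0.36 in replication genes (median -0.20) and from -1.46 to 0.13 in mitosis genes (median -0.42). The errors set the limit of this comparison. The log2 fold change was -0.33 ± 0.37 for Ccnb2, for Pcna -0.39 ± 0.31 and for Mcm3 -0.08 ± 0.46, but for Mki67 -1.46 ± 1.33 and for Uhrf1 -0.31 ± 0.88. Mki67 was at 14.8 and 1.27 RPKM in medium and 5.44 and 0.330 RPKM in co-culture, and its libraries a and b differed by more than the groups did. Cenpf (1.90 and 0.398 and then 0.926 and 0.0436 RPKM, -1.23 ± 1.15), Cenpe (3.04 and 0.975 and then 1.19 and 0.652 RPKM, -1.06 ± 0.68) and Cdkn2a (2.38 and 5.04 and then 1.90 and 1.27 RPKM, -1.22 ± 1.07) had the next largest values, followed by Ccne2 (-0.79 ± 0.43). The co-cultured T cells also held transcripts of keratinocytes, with Krt14 at 61.6 and 16.8 RPKM against 0.419 and 1.06 RPKM in medium. The summed B-cell markers were lower in co-culture, at 16.6 to 27.2 RPKM against 44.2 to 92.3 RPKM, and the part of these cells in the values of the 47 genes was not tested.

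Keratinocytes were compared in co-culture and alone. By the study's methods the co-cultures also held T-cell medium, so that the parts of T cells and medium cannot be told apart. No gene at all was called by edgeR (0% higher and 0% lower of 12515 genes) or by limma, while DESeq2 called 88 genes higher and 98 lower. The values of the replication genes nevertheless lay largely on one side. Those of the mitosis genes did so less, with 15 log2 fold changes above 0 and 6 below. Of the 23 replication genes, 22 had a positive log2 fold change, with a median of 0.76 beside 0.02 over all genes. At an unadjusted p under 0.05, 9 of them were higher, beside 3.08% of all genes. In 15 of the 23 both co-cultured libraries lay above both libraries of keratinocytes alone, beside 19.8% of all genes. Of the 21 mitosis genes, 6 were higher and 2 lower at an unadjusted p under 0.05, the latter beside 4.12% of all genes, with a median log2 fold change of 0.59. Both co-cultured libraries lay above in 10 of the 21 and below in 3, the latter beside 24.3% of all genes. DESeq2 called Mcm5 and Mcm7 higher and Mki67 lower at an adjusted p under 0.05, and limma called none.

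Tyms had the largest positive value, at 3.29 and 2.77 RPKM alone and 7.17 and 9.15 RPKM in co-culture (log2 fold change 1.51 ± 0.35, adjusted p = 0.658). Mcm7 was at 17.1 and 11.3 RPKM alone and 42.6 and 32.5 RPKM in co-culture (log2 fold change 1.47 ± 0.33, adjusted p = 0.658), Mcm5 at 11.6 and 9.31 RPKM alone and 27.4 and 23.9 RPKM in co-culture (log2 fold change 1.36 ± 0.28, adjusted p = 0.658) and Prim1 at 8.02 and 6.39 RPKM alone and 17.5 and 17.0 RPKM in co-culture (log2 fold change 1.34 ± 0.32, adjusted p = 0.658). In these 4 genes the groups did not overlap. Among the mitosis genes, Aurkb was at 9.27 and 9.94 RPKM alone and 20.6 and 20.7 RPKM in co-culture (log2 fold change 1.18 ± 0.30, adjusted p = 0.658). Cdk1 was at 14.6 and 14.1 RPKM alone and 29.8 and 26.5 RPKM in co-culture (log2 fold change 1.04 ± 0.27, adjusted p = 0.658) and Ccnb1 at 32.7 and 30.2 RPKM alone and 55.5 and 55.4 RPKM in co-culture (log2 fold change 0.89 ± 0.27, adjusted p = 0.658). These values again did not overlap between groups and did not pass the test. The inhibitors stood near 0, with log2 fold changes of 0.19 ± 0.36 for Cdkn1a, -0.16 ± 0.33 for Cdkn1b and -0.09 ± 0.49 for Cdkn2a. The 40 further replication genes had a median of 0.72 with 12 higher at an unadjusted p under 0.05, beside 3.08% of all genes. The 54 other mitosis genes had a median of 0.64 with 15 higher.

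Mki67, Cenpe and Cenpf went the other way. Mki67, which encodes the proliferation marker Ki-67, was at 12.6 and 9.50 RPKM in keratinocytes cultured alone and at 2.63 and 0.325 RPKM in co-cultured cells (log2 fold change -2.88 ± 0.95, adjusted p = 0.658). Cenpe, a motor protein of the centromere, was at 4.52 and 3.30 RPKM alone and 1.72 and 0.613 RPKM in co-culture (log2 fold change -1.70 ± 0.54, adjusted p = 0.658), and Cenpf at 3.56 and 2.31 RPKM alone and 1.72 and 0.240 RPKM in co-culture (log2 fold change -1.55 ± 0.89, adjusted p = 0.658). These are the only 3 of the 47 genes with 6 kb or more of exons. Over all genes of that length, the median log2 ratio of co-culture to alone was -0.46 in replicate 1 and -0.83 in replicate 2, whereas in genes with less than 2 kb of exons it was 0.24 and 0.30. The 3 genes themselves had medians of -1.34 and -2.82. None of the 3 genes was called by edgeR in the main fit, nor with the trend of gene length removed. These calls therefore cannot show the part of exon length, which was not tested. With the replicate number also entered in the fit without the length trend, Mki67 was called lower. The calls depended on replicate 1 of the co-culture. Without it, 1 replication gene was called higher and 3 mitosis genes lower, beside 107 higher and 1057 lower of all 13113 genes tested, and without any one of the other 3 libraries no replication or mitosis gene was.

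**Figure D4:**
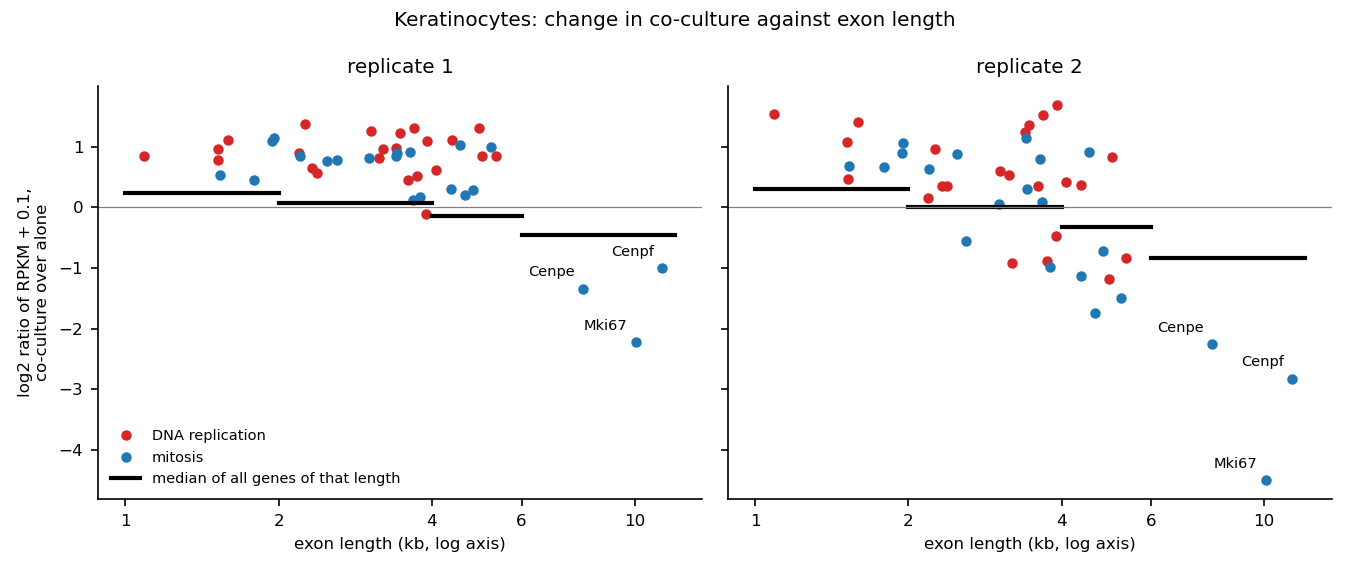
Log2 ratio of RPKM + 0.1 in co-cultured keratinocytes over keratinocytes alone against exon length (kb, log axis), for replicate 1 (left) and 2 (right). Points are the 44 replication (red) and mitosis (blue) genes and black lines the medians of all genes in 4 classes of length; Mki67, Cenpe and Cenpf lie below the class median of -0.46 and -0.83.

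Each replicate number was also read on its own. The median log2 ratio of co-culture to alone of the replication genes was 0.90 in replicate 1, where 22 of 23 were above 0, and 0.47 in replicate 2, where 18 were. For the mitosis genes it was 0.76 and 0.08, with 18 of 21 above 0 in replicate 1 and 12 in replicate 2. The 9 T-cell markers were also higher in co-culture, though none passed the test, with a median log2 ratio of 0.39 in replicate 1 and 0.85 in replicate 2. The part of T-cell RNA in these values was not tested.

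The effect of co-culture was then compared between both cell types in one fit of 8 libraries, as the log2 fold change in T cells (co-culture over medium) minus that in keratinocytes (co-culture over alone). Both sides differ in their controls. The study describes a mix of both media for the T cells without keratinocytes and names none for the keratinocytes alone. None of the 47 genes was called by edgeR, beside 0.523% higher and 0.0530% lower of 13202 genes, nor by limma, while DESeq2 called 2 replication genes and 1 mitosis gene lower, beside 60 of all genes. All 23 replication genes had a negative difference, with a median of -0.96 beside -0.02 over all genes, and 8 had an unadjusted p under 0.05, beside 2.47% of all genes. Tyms had the largest (-2.22 ± 0.49, adjusted p = 0.162), followed by Mcm5 (-1.59 ± 0.41, 0.268) and Prim1 (-1.52 ± 0.42, 0.32). Of the 21 mitosis genes, 7 had an unadjusted p under 0.05, all lower, among them Ccna2 (-1.51 ± 0.45) and Birc5 (-1.50 ± 0.40). The positive values of this group were those of Mki67, Cenpe, Cenpf and Foxm1, from 0.36 to 1.47.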

How the data were processed

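RNA-seq libraries of 5 groups with 2 libraries each were read as deposited. The authors prepared poly(A) libraries, sequenced 59-bp single-end reads and mapped them to GRCm38 with the CLC Genomics Workbench v7.5.1 at its default settings; the annotation release is not given in the sources used here. The authors deposited raw counts of exon reads per gene, counts of uniquely mapped exon reads and RPKM values, in which these reads are scaled to exon length and mapped reads. Single libraries held 12864931 to 18019609 exon reads, of which 78.2 to 87.2% were unique. Libraries of a group differed beyond sampling noise (chi-square per degree of freedom 89.1 to 199) and were counted as separate. Floors of 3 reads cover counting error only, and since no molecular identifiers were used, reads are not independent molecules.

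Counts were tested in R 4.3.3 with edgeR 4.0.16, using filterByExpr, TMM, glmQLFit and glmQLFTest, with Benjamini-Hochberg adjustment over all genes tested. Keratinocytes (4 libraries), T cells (6), activated T cells with keratinocytes alone (4) and the difference of the co-culture effects (8) were fitted apart. Errors of log2 fold changes are standard errors, the size divided by the root of F. Single-library ratios are on log2(RPKM + 0.1), over genes with 10 or more reads in either library, and understate changes of low genes. With 2 libraries against 2, an exact permutation test of one gene cannot reach 0.05, so none was used. Promoter windows were searched by exact match, and 33 of 42 windows of members continued into an annotated transcript on the same strand and 0 on the other.

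All 47 genes could be named. Values in each library are given for genes called in a comparison, for the 5 largest log2 fold changes in each and for the CDK inhibitors. Other lists add up to 3 called genes per list and comparison. Genes outside this rule are named as examples chosen after their values were seen. Members and lists were chosen with earlier results of these data known. As alternatives, DESeq2 1.42.0 was run, limma 3.58.1 was fitted to RPKM values on a log2 scale with a pseudocount of 1 or 0.1, TMM was replaced by library size or by DESeq2 size factors, and the filter was dropped or raised to 10 reads in every library. Further alternatives were unique reads, each library left out, a replicate block, other sets of libraries, and a shorter promoter window. Removal of the trend with gene length, alone or with the block, was chosen after seeing the data.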

Additional observations from a re-analysis of the deposited data

How the results depend on the processing

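The calls of replication genes between activated T cells and keratinocytes held in number under all alternatives (19 to 22 when a library was left out), as did the 0 calls of co-cultured T cells against T cells in medium. The mitosis genes called between activated T cells and keratinocytes numbered 3, and 5 with DESeq2, 6 without a filter, 5 in one fit of all 10 libraries, 7 with the replicate block, 5 with the block and the length trend removed, and 3 to 12 when a library was left out. For T cells in medium against activated T cells, 2 mitosis and 0 replication genes were called. DESeq2 gave 6 and 5, no filter 9 and 8, library size in place of TMM 1 mitosis gene, both limma fits and the removed length trend 1 replication gene each, and leaving out a library 1 to 2 mitosis and 0 to 1 replication genes. For co-cultured against activated T cells, the 1 replication gene became 8 with DESeq2 or without a filter, 4 with either limma fit, 3 with the length trend removed, 0 with unique reads and 0 to 4 when a library was left out, and the 2 mitosis genes 1 to 3. In keratinocytes, the 0 calls became 2 replication genes and 1 mitosis gene with DESeq2, 3 and 2 with the block and the length trend removed (Tyms, Mcm5, Mcm7 and Cdk1 higher, Mki67 lower), and 0 to 1 and 0 to 3 when a library was left out. For the difference of the co-culture effects, DESeq2 gave 2 and 1, and leaving out a library 0. Library size in place of TMM moved the median log2 fold change of all genes from -0.01 to -0.13 in medium and to -0.17 in co-culture, both against activated T cells. Without replicate 1 of the co-cultured keratinocytes, 107 of all genes were higher and 1057 lower there. The cause of these changes was not tested. Of 496 refits of single called genes, 21 missed the threshold and none changed sign. The block alone called 0 keratinocyte members. The replicate numbers are shared by labels only: deviations of libraries with the same number correlated with r = 0.50 across 12515 genes between the keratinocyte groups and r = 0.20 across 12666 genes between activated T cells and keratinocytes, where genes are not independent replicates. With only the 100 bases before the start to the end of the window, E2F letters were in 9 of 21 replication windows (42.9%). This stood beside 4.65% of all windows cut in the same way. CHR letters were in 12 of 16 mitosis windows (75.0%), beside 8.01%. With 2 libraries per group, long transcripts of low coverage carried the largest errors.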

Other observations

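Targets of p53, the group to which Cdkn1a belongs, differed between the cell types. Of 12 such genes, 7 were lower in activated T cells than in keratinocytes alone and 0 higher, beside 25.6% lower and 15.3% higher of all genes. Phlda3, which restrains the kinase AKT, was at 129.7 and 151 RPKM in keratinocytes cultured alone and at 2.07 and 4.55 RPKM in activated T cells (log2 fold change -5.48 ± 0.53, adjusted p = 0.00105). Gadd45a, a gene of the response to DNA damage, was at 24.0 and 67.9 RPKM in keratinocytes and 1.41 and 1.42 RPKM in activated T cells (log2 fold change -5.11 ± 0.66, adjusted p = 0.0027). Eda2r, a receptor of the TNF family, was at 4.84 and 4.09 RPKM in keratinocytes cultured alone and listed at 0 in all 6 T-cell libraries. Among G1 regulators, Rb1 and Rbl1, which encode pocket proteins that bind E2F, rose in co-cultured T cells over activated T cells (Rb1 log2 fold change 1.25 ± 0.33, adjusted p = 0.0488, Rbl1 log2 fold change 1.34 ± 0.30, adjusted p = 0.0289). In the same comparison Cdc25a, a phosphatase that activates CDK2, fell (log2 fold change -1.81 ± 0.47, adjusted p = 0.0475). Of the 10 G1 genes, 2 lay above both activated libraries in co-culture and 2 in medium, beside 23.6% and 22.1% of all genes. None of the 10 was called higher in medium, and none was called between co-culture and medium.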
